A study of Mus musculus with 16 samples.

Results

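The 45 DNA replication and mitosis genes described here encode the proteins that copy the genome, the proteins that divide the chromosomes, and regulators that decide when either happens. They were given as a list of gene symbols and found on the arrays by current symbol, older symbol or transcript accession, with the brightest detected probe standing for each gene. All 45 had a probe above background, among 18993 genes tested and 27670 genes on the array. They fall into 21 genes that act at the G1/S transition and in DNA synthesis, 17 mitotic genes, and 7 regulators of the cycle. Expression was measured in 16 samples of 4TO7, a mouse mammary carcinoma line grown in DMEM with 10% serum, as sublines infected with pMSCV retroviral vectors. The overexpressing groups carried miR-200 Cluster 1, Cluster 2, Clusters 1+2, or CDH1, the gene of the adhesion protein E-cadherin. The corresponding controls carried a puromycin vector (for Cluster 1), a hygromycin vector (for Cluster 2), both vectors (for Clusters 1+2) and a second pair of puromycin vector samples (for CDH1). Each group had 2 arrays, called biological repeats A and B in the design. The labels state neither whether repeats were separate infections nor which miR-200 locus each cluster name stands for. On each 2-colour array 175 ng of sample RNA was labelled against a universal reference pooled from 11 mouse cell lines, so every level below is a log2 ratio of sample over that reference. Cluster 2, Clusters 1+2 and their vectors carried Cy3 on slides 1 and 2, with repeat A on slide 1 and repeat B on slide 2. CDH1 and its vector carried Cy5 on slide 3, and Cluster 1 and its vector carried Cy5 on slide 4. Levels are therefore compared between a group and its own vector, and levels in Cy3 groups are not set against levels in Cy5 groups.

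Cells commit to division in late G1, when cyclin E and its kinase release E2F transcription factors from retinoblastoma proteins and E2F target genes supply the replication machinery. Later in the cycle, MYBL2 and FOXM1 with the MuvB core switch on the mitotic genes through promoter elements called CHR, often beside CCAAT boxes bound by NF-Y. Inhibitors such as p21, encoded by Cdkn1a, oppose the cyclin-dependent kinases and, in p53 responses, lower both sets of genes. In bulk samples of this kind a smaller share of cycling cells and less RNA per cell cannot be told apart.

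The labelled line was checked against its markers. Of 8 epithelial markers all were detected, on 14 to 16 arrays. Among 8 mesenchymal markers Vim, Fn1, Zeb2 and Snai1 were above background on all 16 arrays, Zeb1 on 15, Twist1 on 9, Snai2 on 6 and Cdh2 on 2. Against their own vectors, 5 epithelial markers were higher in Cluster 1, 5 in Cluster 2 and 7 in Clusters 1+2. In CDH1 cells the 1 epithelial marker higher was Cdh1 itself (0.61), and Krt8 was lower (-0.55). Of 7 mesenchymal markers tested, 1 was lower in Cluster 1, 1 in Cluster 2, 4 in Clusters 1+2 and 1 in CDH1 (Fn1, -1.13). The part of these shifts in the results below was not tested. The leukocyte gene Ptprc was above background on 6 arrays, at log2 ratios of at most -1.96, and the endothelial genes Cdh5, Pecam1, Kdr and Tek on 4, 5, 10 and 14 arrays. Limma called 0 of the 6 leukocyte and 4 endothelial markers against any own vector (at most 1 of either at an unadjusted p under 0.05). Across genes (not independent of each other), the correlation between repeats ran between 0.938 and 0.981. Its lowest value belonged to the Puro vector for CDH1, whose replicate B also had the lowest share of spots above background, at 31.2%, against 46.4% to 69.3% on the other arrays.

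Promoter sequence was available for 37 of the 45 genes (RefSeq, build GRCm38.p6), as windows from 250 bases before to 50 bases after the start of the gene. E2F letters (TTTCCCGC, TTTGGCGC, TTTCGCGC or TTTGCCGC, on either strand) were present in 8 of 17 G1/S promoters and 1 of 15 mitotic promoters, against 2.6% of all 27025 genes with a promoter. The CHR letters TTTGAA, on either strand, were present in 2 of 17 G1/S and 11 of 15 mitotic promoters, against 20.2% of all genes. CCAAT, on either strand, was present in 12 of 17 G1/S and 14 of 15 mitotic promoters, against 41.1% of all genes. A match is a description of these letters and not a binding site. The 250 upstream bases of 2 G1/S genes and 3 mitotic genes that were called below are shown to set the motif classes side by side. They run 5′ to 3′, with E2F letters in capitals in Mcm5, Mcm6 and Cdk1 and CHR letters in capitals in Cdk1, Top2a and Kif11. Overlapping matches, as in Mcm5 and Mcm6, form 1 capital run.
Mcm5 promoter (chr8:75109259-75109508, plus strand): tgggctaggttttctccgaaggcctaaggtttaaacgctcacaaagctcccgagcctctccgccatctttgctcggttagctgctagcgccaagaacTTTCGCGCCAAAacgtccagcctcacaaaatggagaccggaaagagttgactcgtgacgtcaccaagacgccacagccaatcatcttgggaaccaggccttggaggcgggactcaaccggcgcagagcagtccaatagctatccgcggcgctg
Mcm6 promoter (chr1:128359706-128359955, minus strand): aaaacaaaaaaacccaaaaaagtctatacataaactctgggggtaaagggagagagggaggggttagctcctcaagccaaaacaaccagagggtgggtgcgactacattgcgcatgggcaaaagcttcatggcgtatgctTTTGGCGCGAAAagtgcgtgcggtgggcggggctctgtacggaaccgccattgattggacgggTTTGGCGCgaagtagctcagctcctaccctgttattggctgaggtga
Cdk1 promoter (chr10:69352913-69353162, minus strand): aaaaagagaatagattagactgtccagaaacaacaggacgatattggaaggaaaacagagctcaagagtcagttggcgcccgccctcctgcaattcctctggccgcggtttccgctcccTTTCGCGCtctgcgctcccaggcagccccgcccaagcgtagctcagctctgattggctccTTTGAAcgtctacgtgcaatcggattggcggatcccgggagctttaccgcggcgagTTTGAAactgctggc
Top2a promoter (chr11:99024190-99024439, minus strand): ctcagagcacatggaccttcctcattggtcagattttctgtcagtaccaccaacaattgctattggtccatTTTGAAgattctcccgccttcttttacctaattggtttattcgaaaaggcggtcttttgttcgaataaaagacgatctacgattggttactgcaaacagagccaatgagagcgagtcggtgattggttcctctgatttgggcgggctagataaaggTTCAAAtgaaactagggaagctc
Kif11 promoter (chr19:37376132-37376381, plus strand): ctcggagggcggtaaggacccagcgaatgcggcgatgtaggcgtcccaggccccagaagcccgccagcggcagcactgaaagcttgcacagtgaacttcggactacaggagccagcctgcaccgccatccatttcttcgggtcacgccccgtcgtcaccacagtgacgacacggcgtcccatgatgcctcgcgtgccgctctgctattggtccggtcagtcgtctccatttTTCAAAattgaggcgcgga
Mcm5 held 2 overlapping E2F matches, and Mcm6 held 3, of which a pair overlapped. Cdk1 held both kinds, with 1 E2F and 2 CHR matches, Top2a held 2 CHR matches and 6 CCAAT boxes, and Kif11 held 1 of each. In the full windows of the other called G1/S and mitotic genes, Mcm7, Cdc6 and Cdt1 held E2F letters and Mki67, Bub1b and Cenpa CHR letters. Mcm2 held CHR but no E2F letters, and Ccne1, Tyms, Pcna, Rrm2, Prim1 and Ccnb1 held neither.

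Against its own vector, each overexpression was compared for all 45 members. In CDH1 cells 10 of 21 G1/S genes and 5 of 17 mitotic genes were higher. Against the other Puro vector, though, 1 member was called, and that 2.22% lay near the 2.41% of all genes. In Cluster 1 cells 6 G1/S genes and 2 regulators were lower, and in Clusters 1+2 cells genes changed in both directions. A gene is called at an adjusted p under 0.05 over all genes tested in a limma fit over all 16 arrays. CDH1 cells had 19 members higher and 1 lower, where 7.62% of all genes were called higher and 6.87% lower. Cluster 1 cells had 0 members higher and 8 lower, where 4.85% of all genes were called higher and 3.37% lower. Clusters 1+2 cells had 4 members higher and 9 lower, where 12% of all genes were called higher and 12.8% lower. The share of members called in Clusters 1+2, 28.9%, lay near the 24.8% of all genes called there. Cluster 2 cells had 0 members called by limma, with 2 at an unadjusted p under 0.05 (Ttk and Kif11), where 1.71% of all genes were called higher and 1.04% lower and the members' 0% lies near both. Ttk was dim on 1 of the 2 Cluster 2 arrays. With 1 array left out the counts shrank, to 4 without Cluster 1 replicate A, to 6 without Clusters 1+2 replicate A, and to 10 without CDH1 replicate B. Without any 1 of the 4 arrays compared, Mcm6 (-0.26 to -0.30), Pcna (-0.31 to -0.35) and E2f1 (-0.24 to -0.29) lost their call in Cluster 1, Top2a (-0.31 to -0.34) in Clusters 1+2, and Pcna (0.19 to 0.26) and Kif11 (0.24 to 0.35) in CDH1. In all, 27 members were called in at least 1 of the 4 comparisons and 18 in none, and the 4 comparisons use separate controls.

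**Figure D1:**
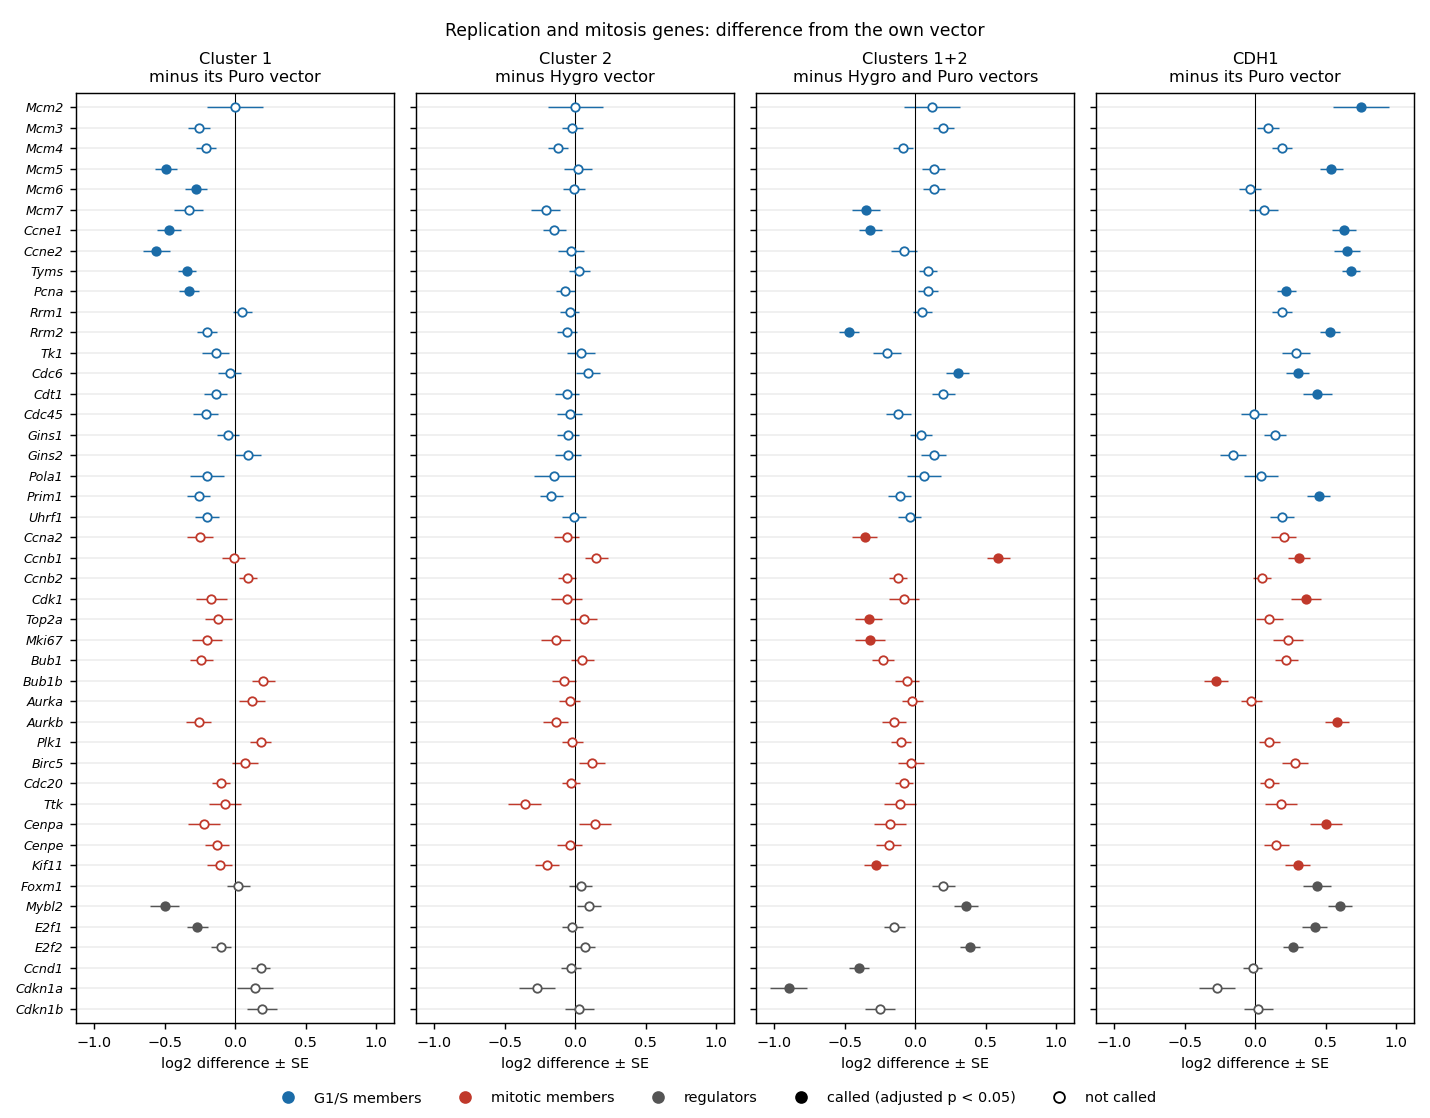
Log2 difference (± SE) of each of the 45 members between an overexpression and its own vector, 2 arrays against 2, with filled points called by limma and open points not called. In CDH1 cells 19 filled points lie above 0 and 1 below, in Cluster 1 cells 8 lie below 0, in Clusters 1+2 cells 4 lie above and 9 below, and in Cluster 2 cells there are none.

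Among the G1/S members, Ccne1 was called in 3 comparisons. Ccne1, which encodes cyclin E1, the activator of Cdk2 at S phase entry, read 0.95 and 0.81 in Cluster 1 cells, against 1.40 and 1.31 in their Puro vector, and 1.38 and 1.38 in CDH1 cells, against 0.70 and 0.80 in theirs. It thus lay below both vector arrays in Cluster 1 cells and above both in CDH1 cells. The difference was -0.47 (SE 0.0824, adjusted p = 0.00358) in Cluster 1 and 0.63 (SE 0.0824, adjusted p = 0.000276), or 1.54-fold higher, in CDH1. Among the Cy3 groups Ccne1 read 0.92 and 0.95 in Clusters 1+2 cells, against 1.37 and 1.14 with both vectors, and 1.16 and 1.13 in Cluster 2 cells, against 1.31 and 1.27 with the Hygro vector. It was lower in Clusters 1+2 (-0.32, adjusted p = 0.0118) and was not called in Cluster 2 (-0.15, adjusted p = 0.446). Ccne1 was not called in Clusters 1+2 without replicate A of that group (-0.31, adjusted p = 0.0667) or of its vectors (-0.21, adjusted p = 0.115). Its second probe gave -0.24 in Cluster 1, 0.59 in CDH1 and -0.31 in Clusters 1+2.

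Ccne2, which encodes the second E-type cyclin, read 0.24 and 0.36 in Cluster 1 cells, against 0.82 and 0.90 in their vector, and 0.82 and 1.04 in CDH1 cells, against 0.35 and 0.21 in theirs. Groups did not overlap in either pair, and the differences were -0.56 (SE 0.0938, adjusted p = 0.0026) and 0.65 (SE 0.0938, adjusted p = 0.000538). In the Cy3 groups it read 0.88 and 0.82 in Clusters 1+2, against 1.04 and 0.83 in the vectors, and 0.95 and 0.97 in Cluster 2, against 1.01 and 0.98. The Cy3 differences of Ccne2, -0.08 in Clusters 1+2 and -0.03 in Cluster 2, were not called. A second, dimmer Ccne2 probe, above background on 11 arrays, gave -0.01 in Cluster 1 and 0.36 in CDH1, so the fall in Cluster 1 rests on 1 probe.

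The MCM genes encode the subunits of the replicative helicase, which is loaded at origins in G1. Mcm5 read 0.01 and 0.15 in Cluster 1 cells, against 0.54 and 0.60 in their vector, and 0.70 and 0.53 in CDH1 cells, against 0.05 and 0.09 in theirs. Both pairs were fully separated, by -0.49 (SE 0.079, adjusted p = 0.00266) and 0.54 (SE 0.079, adjusted p = 0.000762). Mcm5 was at 0.53 and 0.44 in Clusters 1+2, against 0.32 and 0.40, and at 0.33 and 0.32 in Cluster 2, against 0.30 on the 1 Hygro vector array with a value, and neither difference was called. Mcm2 read 0.15 and 0.26 in CDH1 cells, against -0.99 and -0.11 in their vector. The Mcm2 difference of 0.75 (SE 0.197, adjusted p = 0.022) was called, with Mcm2 above background on 1 of the 2 vector arrays and vector replicate A far below B. The Mcm2 call was lost without vector replicate A (0.31, adjusted p = 0.102), without CDH1 replicate A (0.81, adjusted p = 0.0699) and without CDH1 replicate B (0.70, adjusted p = 0.132). In Cluster 1, Mcm2 was at 0.00 and -0.07, against -0.15 and 0.08, and overlapped its vector. In the Cy3 groups it was at 0.31 and 0.31 in Clusters 1+2, against 0.09 and 0.28, and at 0.09 and 0.14 in Cluster 2, against 0.10 and 0.13. Of the remaining helicase genes, Mcm6 was lower in Cluster 1 (-0.28, adjusted p = 0.0438) and Mcm7 in Clusters 1+2 (-0.35, adjusted p = 0.0226), the second not without vector replicate B (-0.17) or either Clusters 1+2 array (-0.34 and -0.37). Mcm3 and Mcm4 were called against no own vector. The helicase subunits differed among themselves: in CDH1 cells Mcm6 was at -0.04, not called, and Mcm5 at 0.54.

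Of the nucleotide supply genes, Tyms and Rrm2 were called and Rrm1 and Tk1 were called against no own vector. Tyms, the thymidylate synthase gene, whose probe lies on chromosome 5 at 29093977 to 29094036 (minus strand, build mm7), read 1.29 and 1.29 in CDH1 cells, against 0.64 and 0.59 in their vector. It read 0.84 and 0.80 in Cluster 1 cells, against 1.17 and 1.14 in theirs. The rise in CDH1 was 0.68 (SE 0.0632, adjusted p = 3.42e-05), or 1.6-fold, and the fall in Cluster 1 was -0.34 (SE 0.0632, adjusted p = 0.00634). A second Tyms probe gave 0.59 in CDH1 and -0.31 in Cluster 1, and a further one gave 0.03 and -0.11. In the Cy3 groups Tyms stayed between 0.98 and 1.12 on every array with a value: 1.11 and 1.12 in Clusters 1+2, against 1.07 and 0.98, and 1.02 and 1.05 in Cluster 2, against 1.01 on 1 array.

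Rrm2, the regulated subunit of ribonucleotide reductase, read 0.62 and 0.56 in CDH1 cells, against 0.11 and 0.02 in their vector, and -0.01 and 0.07 in Cluster 1 cells, against 0.27 and 0.18. It read -0.12 and -0.13 in Clusters 1+2 cells, against 0.27 and 0.43 in their vectors, and 0.18 and 0.19 in Cluster 2 cells, against 0.23 and 0.26 in theirs. Rrm2 was thus higher in CDH1 (0.53, SE 0.0719, adjusted p = 0.000352) and lower in Clusters 1+2 (-0.47, SE 0.0719, adjusted p = 0.000325). The Cluster 1 difference, -0.20, was not called (adjusted p = 0.13). Rrm1, the other subunit, differed by 0.19 in CDH1 and 0.05 in Clusters 1+2 and was not called in either.

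Among replication fork and origin licensing genes, Pcna, the sliding clamp, read 1.30 and 1.27 in Cluster 1 cells, against 1.62 and 1.61, and 1.47 and 1.53 in CDH1 cells, against 1.31 and 1.24. It was lower in Cluster 1 (-0.33, adjusted p = 0.011) and higher in CDH1 (0.22, adjusted p = 0.0489). Pcna was at 0.91 and 0.95 in Clusters 1+2, against 0.86 and 0.83, and at 0.80 and 0.93 in Cluster 2, against 0.88 and 0.99, with no call. Cdc6, which loads the helicase, read 0.94 and 0.84 in Clusters 1+2, against 0.55 and 0.64, and 0.82 and 0.64 in CDH1, against 0.41 and 0.46. Both differences were 0.30 (adjusted p = 0.0189 in Clusters 1+2 and 0.0294 in CDH1), but the second Cdc6 probe gave -0.40 in Clusters 1+2 and 0.11 in CDH1, so the direction in Clusters 1+2 differs between probes. Cdc6 overlapped its vector in Cluster 1 (0.50 and 0.42, against 0.45 and 0.55) and in Cluster 2 (0.69 and 0.60, against 0.62 and 0.49). The primase gene Prim1 (0.45, adjusted p = 0.00254) and the licensing factor gene Cdt1 (0.44, adjusted p = 0.0135, with 1 vector array missing) were the other G1/S genes called in CDH1. Cdt1 was not called without CDH1 replicate B (0.43, adjusted p = 0.0619). Cdc6 was not called in CDH1 without CDH1 replicate A (0.21) or either vector array (0.27 and 0.32), nor in Clusters 1+2 without replicate A of either group (0.25 each).

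Of the 17 mitotic members limma called 0 in Cluster 1, where 5 had an unadjusted p under 0.05. Ccnb1, cyclin B1, the activator of Cdk1 at entry to mitosis, read 1.09 and 1.02 in Clusters 1+2, against 0.50 and 0.44 in the vectors, and 0.44 and 0.51 in CDH1 cells, against 0.28 and 0.04. It was the mitotic member that rose in Clusters 1+2, by 0.59 (SE 0.0811, adjusted p = 0.000158), and it was also higher in CDH1 (0.31, adjusted p = 0.022). That probe lies on chromosome 13 at 97885282 to 97885341 (minus strand, build mm7), and 2 further Ccnb1 probes gave 0.26 and 0.08 in Clusters 1+2 and 0.39 and 0.03 in CDH1. Ccnb1 read 0.62 and 0.64 in Cluster 2, against 0.53 and 0.43, and 0.41 and 0.34 in Cluster 1, against 0.39 and 0.38, neither of them called.

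Kif11, the motor that separates spindle poles, was at -0.27 and -0.32 in Clusters 1+2, against -0.12 and 0.09, and at 0.07 and -0.05 in CDH1 cells, against -0.33 and -0.24. It was lower in Clusters 1+2 (-0.28, adjusted p = 0.0321) and higher in CDH1 (0.30, adjusted p = 0.0379). In Cluster 2 it read -0.25 and -0.38, against -0.08 and -0.15, and in Cluster 1 -0.26 and -0.17, against -0.05 and -0.16. Those differences, -0.20 and -0.11, were not called. Further, dimmer Kif11 probes, above background on 5 and 7 arrays, gave -0.10 and -0.19 in Clusters 1+2 and 0.07 and -0.06 in CDH1. With the mean of all detected probes, Kif11 lost its call in Clusters 1+2 and in CDH1. Also lower in Clusters 1+2 were Ccna2, the cyclin of S phase and G2 (-0.36, adjusted p = 0.00954), Top2a, which untangles chromosomes (-0.33, adjusted p = 0.0231), and the proliferation marker gene Mki67 (-0.32, adjusted p = 0.0402). Ccna2 lost its call without Clusters 1+2 replicate A (-0.34, adjusted p = 0.0659) or vector replicate B (-0.25, adjusted p = 0.109). Without vector replicate B, Kif11 was at -0.17 and Mki67 at -0.20, and both also lost their call without either Clusters 1+2 array. A further Top2a probe gave -0.67 and a further Mki67 probe -0.23 there.

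In CDH1 cells the mitotic kinase gene Cdk1 (0.36, adjusted p = 0.0431) and Cenpa, the centromeric histone gene (0.50, adjusted p = 0.00929), were higher. Aurkb, the kinase of the chromosomal passenger complex, read 0.67 and 0.61 in CDH1 cells, against -0.06 and 0.17 in their vector, where 1 array was well above background, and the difference of 0.58 was called (SE 0.0867, adjusted p = 0.000662). Aurkb did not clear background in Cluster 1 cells, and its size there is left out. Bub1b, a spindle checkpoint gene, went the other way in CDH1 (-0.28, adjusted p = 0.0387). Without CDH1 replicate B, the calls of Cdk1 (0.23), Cenpa (0.37), Bub1b (-0.19) and Ccnb1 (0.27) were lost, and without vector replicate B those of Cdk1 (0.26), Cenpa (0.46), Bub1b (-0.31) and Ccnb1 (0.19). Bub1b was not called without vector replicate A (-0.25), nor Ccnb1 without CDH1 replicate A (0.35). Ttk, another checkpoint kinase gene, was not well above background on any array of Cluster 1 or of either Puro vector, nor on 1 of the 2 Cluster 2 arrays, where its difference was -0.062 on slide 1 and -0.668 on slide 2. Of the 18 members called against no own vector, those other than Ttk differed from their vectors by -0.26 (Mcm3 in Cluster 1) to 0.29 (Tk1 in CDH1). Besides Mcm3, Mcm4, Rrm1, Tk1 and Ttk, the 18 were Cdc45, Gins1, Gins2, Pola1, Uhrf1, Ccnb2, Bub1, Aurka, Plk1, Birc5, Cdc20, Cenpe and Cdkn1b.

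Of the 7 regulators, Mybl2, which encodes B-Myb, was called in 3 comparisons, in both directions. It read 0.34 in Cluster 1 cells, on the 1 array with a value, against 0.72 and 0.95 in their vector, and 0.91 and 0.99 in CDH1 cells, against 0.34 and 0.35. Its values were 1.44 and 1.43 in Clusters 1+2, against 1.01 and 1.14 with both vectors, and 1.11 and 1.08 in Cluster 2, against 0.95 and 1.04. Mybl2 was thus lower in Cluster 1 (-0.50, SE 0.104, adjusted p = 0.0118) and higher in CDH1 (0.60, SE 0.0847, adjusted p = 0.00059) and in Clusters 1+2 (0.36, adjusted p = 0.00832), with no call in Cluster 2 (0.10, adjusted p = 0.65). Its call was lost without 1 vector array in 2 pairs: without Puro vector replicate B in Cluster 1 (-0.39, adjusted p = 0.066) and without vector replicate A in Clusters 1+2 (0.29, adjusted p = 0.064). Mybl2 in Cluster 1 turned to 0.26 (adjusted p = 0.312) when the sample channel was used alone.

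E2f1, an activator of replication genes, read 0.01 and -0.04 in Cluster 1 cells, against 0.26 and 0.24, and 0.51 in CDH1 cells, on 1 array, against 0.00 and 0.17. It was lower in Cluster 1 (-0.27, adjusted p = 0.0496) and higher in CDH1 (0.42, adjusted p = 0.00918), with a second probe at -0.04 and 0.15. Its Cy3 values were 0.11 and 0.07 in Clusters 1+2, against 0.26 and 0.21, and 0.15 and 0.12 in Cluster 2, against 0.10 and 0.21, with no call. E2f2, a related activator, read -0.77 and -0.75 in Clusters 1+2, against -1.12 and -1.17, and -0.31 and -0.26 in CDH1, against -0.52 and -0.60. Both were called higher, by 0.39 (SE 0.0704, adjusted p = 0.0013) and 0.27 (adjusted p = 0.0197), the second not without CDH1 replicate A (0.30), CDH1 replicate B (0.25) or vector replicate B (0.23). E2f2 was at -0.51 and -0.34 in Cluster 1, against -0.36 and -0.30, and at -0.96 and -1.02 in Cluster 2, against -1.05 and -1.06, without a call.

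Foxm1, which activates mitotic genes in G2, read 0.43 and 0.57 in CDH1 cells, against 0.06 on the 1 vector array with a value, and was called higher (0.44, SE 0.1, adjusted p = 0.0124), though not without CDH1 replicate B (0.37, adjusted p = 0.0803). It read 0.21 and 0.24 in Cluster 1, against 0.15 and 0.25, then 0.61 and 0.72 in Clusters 1+2, against 0.56 and 0.38, and 0.52 and 0.53 in Cluster 2, against 0.44 and 0.52. In none of these 3 was it called. Ccnd1, cyclin D1, which couples growth signals to G1 kinases, read 1.57 and 1.46 in Clusters 1+2, against 1.97 and 1.85, and 1.98 and 1.97 in Cluster 2, against 2.02 and 1.99. It was lower in Clusters 1+2 by -0.40 (SE 0.0693, adjusted p = 0.000953) and differed by -0.03 in Cluster 2. In the Cy5 groups Ccnd1 read 1.40 and 1.41 in Cluster 1, against 1.20 and 1.26, and 1.23 and 1.30 in CDH1, against 1.25 and 1.33, with no call.

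Cdkn1a, the gene of the inhibitor p21, showed the largest difference of any member. Its probe lies on chromosome 17 at 27293819 to 27293878 (plus strand, build mm7), and it read -2.93 and -2.59 in Clusters 1+2 cells, against -2.04 and -1.67 with both vectors. The difference, -0.90 (SE 0.129, adjusted p = 0.000208), or 1.87-fold lower, exceeded the gap of 0.37 between the vector arrays and was -0.89 on slide 1 and -0.916 on slide 2. In Cluster 2 it read -2.09 and -2.00, against -1.83 and -1.71, a difference of -0.27 that was not called (adjusted p = 0.362). It read -1.26 and -1.28 in CDH1, against -0.88 and -1.12, and -0.81 and -0.84 in Cluster 1, against -0.96 and -0.97, neither called. Cdkn1b, the gene of the related inhibitor p27, read -0.37 and -0.41 in Clusters 1+2, against -0.33 and 0.05, and 0.41 and 0.40 in Cluster 1, against 0.29 and 0.14. It read -0.35 and -0.25 in Cluster 2, against -0.33 and -0.32, and -0.01 and 0.09 in CDH1, against 0.05 and -0.01, and was called against no own vector.

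The 2 classes were then compared as medians, without a test since both are lists of chosen genes. In Cluster 1 the median log2 difference was -0.21 for the G1/S members, with 19 of 21 below 0 and 6 called, and -0.11 for the mitotic members, with 12 of 17 below 0, beside 0.005 for all genes. In CDH1 the medians were close, 0.224 for G1/S members (18 of 21 above 0, 10 called) and 0.203 for mitotic members (15 of 17 above 0, 5 called higher), beside 0.005 for all genes. For Clusters 1+2 the G1/S median was 0.046 and the mitotic median -0.123, with 16 of 17 mitotic members below 0 and Ccnb1 above it. In Cluster 2 both medians were -0.045, a sign that turned to 0.272 and 0.289 under median centring of each array, where the median of all genes itself moved to 0.135. Under that centring the median of all genes also moved to 0.105 in CDH1, and the class medians there to 0.468 and 0.427.

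**Figure D2:**
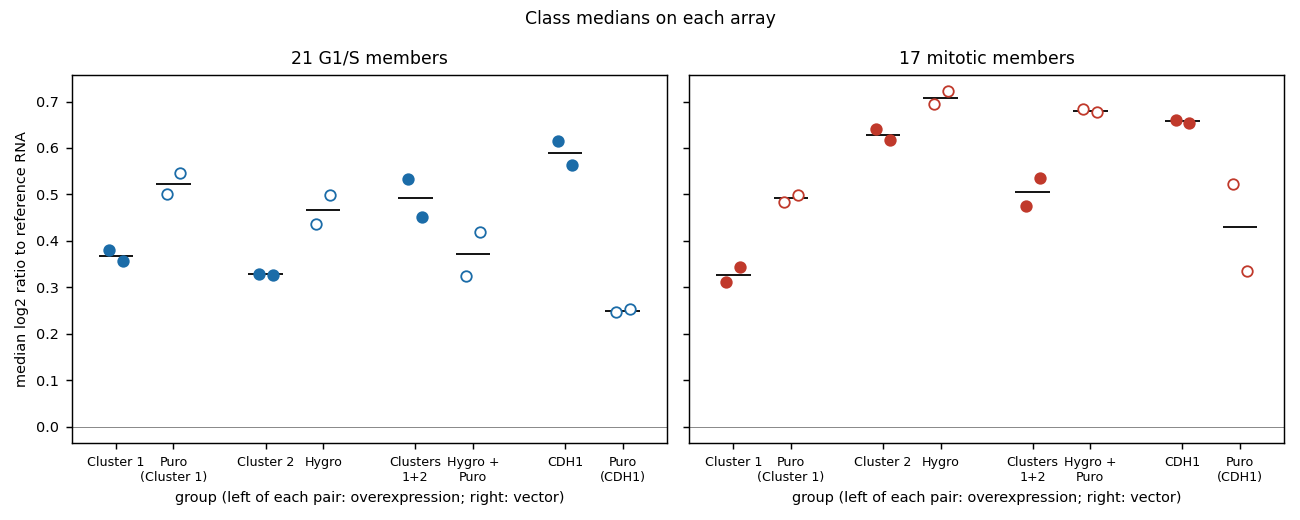
Median log2 ratio to the reference RNA of the 21 G1/S members and the 17 mitotic members on each array, with filled points for overexpressions, open points for the vector to their right, and bars at the mean of 2 arrays. The G1/S medians of the Puro vector for CDH1, 0.247 and 0.253, are the lowest among the Cy5 arrays, against 0.50 and 0.546 in the Puro vector for Cluster 1.

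Class medians on single arrays are given next, over the members with a value (18 of 21 G1/S members on Hygro vector replicate B, 20 on Puro vector for CDH1 replicate B, 16 of 17 mitotic members on Cluster 1 replicate A, and all on the rest). The G1/S median was 0.38 and 0.356 in Cluster 1, against 0.50 and 0.546, and 0.615 and 0.563 in CDH1, against 0.247 and 0.253. The mitotic median was 0.476 and 0.536 in Clusters 1+2, against 0.683 and 0.677, and 0.312 and 0.343 in Cluster 1, against 0.484 and 0.499. In Cluster 2 the G1/S median was 0.329 and 0.327, against 0.436 and 0.499, and the mitotic median 0.64 and 0.617, against 0.695 and 0.722. The G1/S median of Clusters 1+2 was 0.534 and 0.451, against 0.325 and 0.42. None of these pairs overlapped. Over members with a value on both arrays of a slide, the G1/S median difference in Cluster 2 was -0.067 on slide 1 and -0.019 on slide 2, and it was -0.001 without Cluster 2 replicate A. The mitotic median of the Puro vector for CDH1 differed between its own arrays, at 0.522 and 0.336, and both CDH1 arrays, at 0.661 and 0.654, lay above them.

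The second Puro vector allowed a check of the control. The Puro vector for CDH1 and that for Cluster 1 carry the same vector but lay on different slides, so slide and sample cannot be told apart here. In the Puro vector for CDH1, 10 members were lower than in the Puro vector for Cluster 1 and 0 were higher, where 4.85% of all genes were called lower and 5.18% higher. The 10 were Ccne1 (-0.60), Ccne2 (-0.58), Tyms (-0.55), Mcm5 (-0.50), Mybl2 (-0.49), Prim1 (-0.48), Uhrf1 (-0.35), Pcna (-0.34), Aurkb (-0.34) and Rrm1 (-0.30), so 8 of them were G1/S genes. The median difference was -0.293 for G1/S members and -0.06 for mitotic members, and the mitotic one turned to 0.037 with the sample channel alone. With that channel 4 members were higher and 7 lower, counts given without the share of all genes called under that setting. Of the 4 endothelial markers, Cdh5 (0.75) and Kdr (0.53) were also higher in the Puro vector for CDH1, as were the mesenchymal genes Fn1 (0.91) and Zeb2 (0.36), and their part in the result was not tested.

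CDH1 cells set against the Puro vector for Cluster 1 had 1 member called, Rrm2 (0.37, SE 0.0719, adjusted p = 0.0204). Of all genes, 1.26% were called higher and 1.15% lower. The share of members called, 2.22%, lay near the 2.41% of all genes. The G1/S median was -0.003, with 10 of 21 members above 0, and the mitotic median 0.137, with 13 of 17 above 0. The near-zero G1/S median turned to 0.13 under median centring, 0.093 with the sample channel alone and 0.019 with the authors' processed ratios. Ccne1 was at 0.03, Mcm5 at 0.05, Ccne2 at 0.07, Mybl2 at 0.11 and Tyms at 0.13, each called higher against the own vector and not called here. Cenpa (0.47, adjusted p = 0.0509) and Cenpe, a kinetochore motor gene (0.36, adjusted p = 0.0567), missed the threshold. No member was called without CDH1 replicate A or without either Puro vector array. With the sample channel alone, 8 members were called higher, a count given without the share of all genes called under that setting.

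Cluster 1 cells set against the Puro vector for CDH1 had 2 members higher and 2 lower. Of all genes, 4.76% were called higher and 3.82% lower. The share of members called in either direction, 8.89%, lay near the 8.58% of all genes. Cdkn1b (0.39, adjusted p = 0.0359) and Rrm1 (0.35, adjusted p = 0.00623) were higher, and Mcm3 (-0.34, adjusted p = 0.0171) and Cenpe (-0.33, adjusted p = 0.0337) were lower. The medians were 0.028 for G1/S and 0.041 for mitotic members. None of the 8 members lower against the own vector was called lower against this one: Mcm5 was at 0.01, Ccne2 at 0.02, Pcna at 0.01, Ccne1 at 0.13 and Tyms at 0.21. Without Cluster 1 replicate B the count was 0, and without any other 1 of these arrays it was 2. The split of 2 and 2 became 4 higher and 1 lower with the authors' processed ratios. It was 3 and 0 under median centring, and 5 and 9 with the sample channel alone. These splits stand without the shares of all genes called under the same settings. These comparisons share arrays with those against the own vector, and the levels in the plot of the Puro controls show the order: for Mcm5, Ccne1, Ccne2 and Mybl2, CDH1 cells and the Puro vector for Cluster 1 lay together above Cluster 1 cells and the Puro vector for CDH1.

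**Figure D3:**
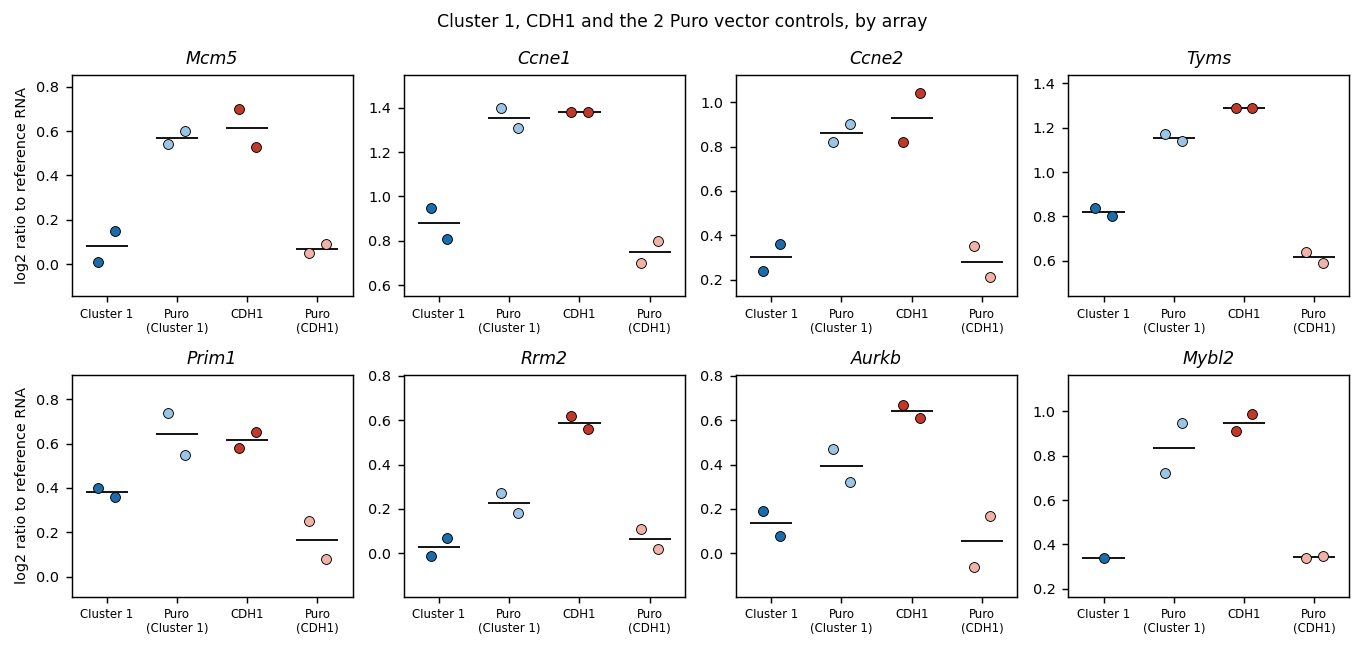
Log2 ratio to the reference RNA of 8 members on each of the 8 Cy5 arrays (Cluster 1 and its Puro vector on slide 4, CDH1 and its Puro vector on slide 3), with bars at group means. Mcm5, for example, sits at 0.01 and 0.15 in Cluster 1, 0.54 and 0.60 in its vector, 0.70 and 0.53 in CDH1, and 0.05 and 0.09 in its vector.

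Whether 2 effects differed was tested directly. The effect of Cluster 1 minus the effect of CDH1, each against its own vector, was lower for 21 members and higher for 1, where 8.17% of all genes were called lower and 8.85% higher. Ccne2 (-1.21), Mybl2 (-1.11), Ccne1 (-1.10), Mcm5 (-1.03) and Tyms (-1.02) differed most. Without CDH1 replicate B 14 members were called, all lower. Members lower in Cluster 1 and higher in CDH1 numbered 17 of 21 G1/S genes and 12 of 17 mitotic genes, against 30.1% of all genes. Those called in both numbered 5 G1/S members (Mcm5, Ccne1, Ccne2, Tyms and Pcna), 0 mitotic members and 2 regulators (Mybl2 and E2f1), against 1.54% of all genes. The difference of effects holds, by construction, the difference between the Puro vectors, which was called in 6 of these 7 genes, with E2f1 at -0.16 (adjusted p = 0.227).

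The effect of Clusters 1+2 exceeded or fell short of that of Cluster 2 in 3 members, where 2.91% of all genes were called higher and 3.32% lower. The share of members called, 6.67%, lay near the 6.22% of all genes. Ccnb1 was higher by 0.43 (adjusted p = 0.043), and Rrm2 (-0.41, adjusted p = 0.0305) and Ccnd1 (-0.37, adjusted p = 0.0439) were lower. The count was 0 without any 1 of the Hygro vector or Cluster 2 arrays or Clusters 1+2 replicate A, and 1 without Clusters 1+2 replicate B or replicate B of its vectors. Under median centring 9 members were lower and 0 higher, and with the authors' processed ratios limma called 0. The shares of all genes called under those settings are not given here. The effect of Cluster 1 minus that of Cluster 2 was called in 1 member, Mybl2 (-0.60, adjusted p = 0.038), where 1.73% of all genes were called higher and 0.935% lower. The share of members called there, 2.22%, lay near the 2.67% of all genes. Mybl2 was not called there without any 1 of the Hygro vector or Cluster 2 arrays, without Cluster 1 replicate A, or without its vector replicate B. No alike second control was measured for Cluster 2 or for Clusters 1+2.

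**Figure D4:**
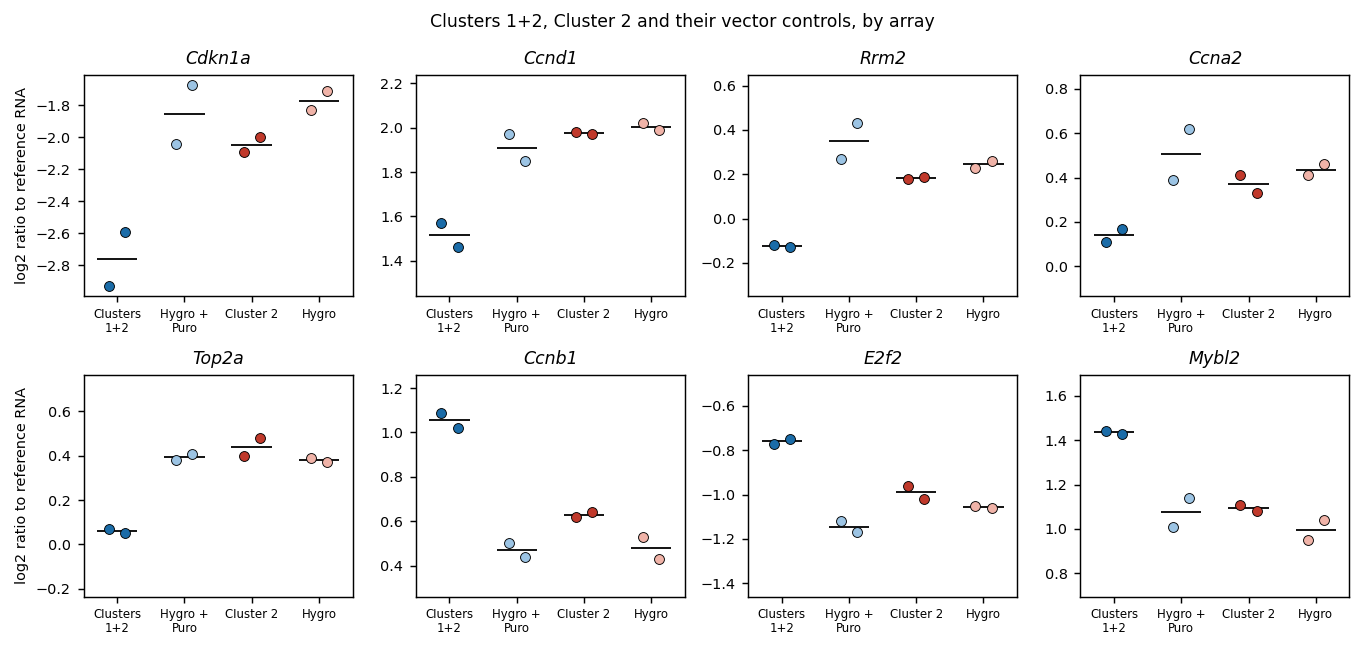
Log2 ratio to the reference RNA of 8 members on each of the 8 Cy3 arrays, with bars at group means of 2 arrays. In Clusters 1+2, Cdkn1a, Ccnd1, Rrm2, Ccna2 and Top2a lie below all 6 other arrays and Ccnb1, E2f2 and Mybl2 above them.

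Other genes of the same pathways were counted from 3 further lists that do not hold the members. Of 40 other replication genes, 12 were lower and 0 higher in Cluster 1 (median -0.223), among them the single-strand binding protein gene Rpa1 (-0.72), the histone mRNA binding gene Slbp (-0.57) and the origin recognition gene Orc2 (-0.55). The 30% called stands beside 8.22% of all genes. In CDH1 14 were higher and 0 lower (median 0.229), 35% against 14.5% of all genes, led by Rpa2 (0.93), Rpa3 (0.57) and Orc6 (0.55). Clusters 1+2 had 2 higher and 3 lower, with Orc3 (-0.55) and the replication kinase gene Cdc7 (-0.52) lower and Orc2 higher (0.43), 12.5% called against 24.8% of all genes. Limma called 0 of them in Cluster 2, with 3 at an unadjusted p under 0.05. Against the other Puro vector, CDH1 cells had 0 of these genes called (9 at an unadjusted p under 0.05), and Cluster 1 cells had Rpa2 higher (0.67) and 3 lower, including Rpa1 (-0.46) and Rfc2 (-0.39), 10% against 8.58% of all genes. In the Puro vector for CDH1 10 were lower than in the other, 25% against 10% of all genes, led by Rpa2 (-0.94), Orc6 (-0.57) and the nucleoside kinase gene Dck (-0.53).

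Of 50 other mitosis genes, 12 were lower and 3 higher in Clusters 1+2 (median -0.123), with the kinetochore genes Knl1 (-0.62) and Nuf2 (-0.48) and the condensin gene Smc2 (-0.52) among the lower. The share called, 30%, lay near the 24.8% of all genes. In CDH1 12 were higher and 3 lower (median 0.167), 30% against 14.5% of all genes, led by the spindle gene Tacc3 (0.55), the cohesion gene Cdca5 (0.50) and Nuf2 (0.46). Cluster 1 had 2 higher and 2 lower (median -0.069), 8% against 8.22% of all genes, with Nuf2 at -0.63, the securin gene Pttg1 at 0.38 and Racgap1 at 0.38. Limma called 0 in Cluster 2 and 0 in CDH1 against the other Puro vector, with 2 and 6 at an unadjusted p under 0.05. Cluster 1 against the Puro vector for CDH1 had 5 higher and 1 lower, 12% against 8.58% of all genes, with Tacc3 at 0.41, Cks2 at 0.40 and Cenpb at -0.45. In the Puro vector for CDH1 8 were lower and 1 higher than in the other, 18% against 10% of all genes, with Tacc3 at -0.49, Nuf2 at -0.44 and Kif23 at -0.35.

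Of 28 further regulators measured, 5 were higher and 8 lower in Clusters 1+2, where Myc, a growth-promoting transcription factor gene (0.75), and Ccnd2, cyclin D2 (0.72), rose while the repressor gene E2f8 fell (-0.67). The shares called were 46.4% in Clusters 1+2, 35.7% in CDH1, 10.7% in Cluster 1 and 3.57% in Cluster 2, beside 24.8%, 14.5%, 8.22% and 2.75% of all genes. Ccnd2 (0.73) and E2f7 (0.59) were higher in CDH1 and the inhibitor gene Cdkn2b lower (-0.66), in all 8 higher and 2 lower. In Cluster 1 E2f3 (-0.42), the E2F partner gene Tfdp1 (-0.28) and Cdk6 (-0.24) were lower and 0 higher, and in Cluster 2 Tfdp2 (-0.37) was lower. Against the other Puro vector 0 were called in CDH1 (4 at an unadjusted p under 0.05) and Ccnd2 (0.73) was higher in Cluster 1. Between the Puro vectors, Ccnd2 (-0.54), E2f7 (-0.52) and Tfdp1 (-0.45) were lower in that for CDH1 and 1 gene was higher.

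A list of p53 target genes without Cdkn1a was counted beside it, with 18 measured. In Clusters 1+2, where Cdkn1a was lower, 5 were higher and 3 lower, with Perp (2.89) and the kinase gene Plk2 (1.12) higher and Phlda3 lower (-0.80). The shares called were 44.4% in Clusters 1+2, 38.9% in CDH1, 27.8% in Cluster 1 and 5.56% in Cluster 2, beside 24.8%, 14.5%, 8.22% and 2.75% of all genes. Perp also encodes a desmosomal protein of epithelia, and it was higher in Cluster 2 (1.96), Cluster 1 (1.94) and CDH1 (2.20) too. In Cluster 1 5 were higher and 0 lower, including the growth arrest gene Gadd45a (0.70) and Trp53inp1 (0.65), and in CDH1 2 were higher and 5 lower, including Gadd45a (-0.81) and Trp53inp1 (-0.75). In Cluster 2 Perp was the 1 gene called. Against the other Puro vector, CDH1 cells had Perp at 0.97, Gadd45a at -0.74 and the p53 ligase gene Mdm2 at -0.49, and Cluster 1 cells had Perp at 3.17, Gadd45a at 0.63 and Sesn2 at -0.50. Between the Puro vectors, Perp was lower in that for CDH1 (-1.23), while Bbc3 (0.35) and Sesn2 (0.33) were higher.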

How the data were processed

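Gene expression in 16 samples was read from 2-colour Agilent arrays. Per the file headers, the deposited files hold the intensity of each spot (mean and local background median) and processed intensity values from Agilent Feature Extraction 9.5.3.1 on design 014868, with probe positions in build mm7. Per the file headers they also hold the log10 ratio of red over green and flags for outliers and for signal over background. The linear ratio in the deposited series matrix matched the authors' processed sample over reference signal, to within 8.06e-08 on the log10 scale, and its column medians ran from 0.9032 to 1.175.

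Marked spots were set missing, local background was removed by normexp at an offset of 50, and loess was run within arrays, control spots weighted 0 (limma 3.58.1 in R 4.3.3). Ratios were turned to log2 of sample over reference. Kept probes, 27090 in all, were those whose sample signal was well above background on each array of some group, and the brightest stood for its gene. Probes were named by accession, symbol or synonym; 3 members carry another name in the files. Of the members, 14 had more than 1 kept probe. No member was saturated.

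One limma model with 8 group means over 16 arrays gave every comparison, with two-sided moderated tests adjusted by Benjamini-Hochberg over all genes. It pools the spread over groups and drops a missing array from a gene's value. The fit was tested on simulated data with known changes. The number of arrays limits the precision, and p-values measure the spread between repeats, which may be technical. The members and lists were chosen with earlier results of these data known. Every array value is given for members called in at least 2 own-vector comparisons, for the 4 called members that differed most in each, and for the 7 regulators; of the further lists, up to 3 called genes with the largest difference are named per comparison. The closing section gives other background, normalisation, filter, probe and block settings. Promoters came from RefSeq tables of GRCm38.p6; those of 8 members were not used here.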

Additional observations from a re-analysis of the deposited data

Results flagged for a closer look

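Results below are members whose effects under 2 overexpressions differed by a limma test of the difference itself. The effect of Cluster 1 minus that of CDH1 was lower in Ccne2 (-1.21), Mybl2 (-1.11), Ccne1 (-1.10), Mcm5 (-1.03), Tyms (-1.02), Aurkb (-0.84), Rrm2 (-0.72), Prim1 (-0.72), Cenpa (-0.72), E2f1 (-0.68), Cdt1 (-0.58), Pcna (-0.55), Cdk1 (-0.53), Bub1 (-0.46) and Ccna2 (-0.45). It was also lower in Mcm4 (-0.41), Kif11 (-0.41), Foxm1 (-0.41), Uhrf1 (-0.38), E2f2 (-0.37) and Mcm3 (-0.35), and higher in Bub1b (0.49). For Aurkb the Cluster 1 arrays were not well above background, so its value is no measured size. Each of these values also holds the difference between the Puro vectors, which lay on different slides. A slide shift common to a group and its own vector cancels within each effect, and any other part of slide was not tested. The effect of Clusters 1+2 minus that of Cluster 2 was lower in Rrm2 (-0.41) and Ccnd1 (-0.37) and higher in Ccnb1 (0.43). The effect of Cluster 1 minus that of Cluster 2 was lower in Mybl2 (-0.60). In these effect differences with Cluster 2 the shares of members called, 6.67% and 2.22%, lay near the 6.22% and 2.67% of all genes.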

How the results depend on the processing

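In CDH1 against its own vector, Mcm5, Ccne1, Tyms, Rrm2, Prim1, Aurkb and Mybl2 kept their call in all 14 alternatives, and Ccne2 in 13. Foxm1 kept it in 12 of 13, and Cdt1 and E2f1 in 10 of 13. Mcm2 and E2f2 kept it in 9, Ccnb1, Bub1b and Cenpa in 8, Cdk1 and Kif11 in 7, Cdc6 in 5 and Pcna in 4. In Cluster 1, Mcm5 and Tyms kept it in 13 and Ccne1 and Ccne2 in 12. Mybl2 kept it there in 9 of 13, while Mcm6 kept it in 4, Pcna in 5 and E2f1 in 2. In Clusters 1+2, Rrm2 and Ccnb1 kept it in 13 and Cdkn1a, Ccnd1 and E2f2 in 12. Ccna2 and Mybl2 kept it there in 9, Ccne1 in 8, Mcm7 in 7, Cdc6, Top2a and Kif11 in 5, and Mki67 in 3. The cause of the changes below was not tested. Counts of members called under other settings stand below without the share of all genes called under the same setting. They show how the counts moved and are not read as results about the members. Under median centring the median of all genes itself moved to 0.135 in Cluster 2 and 0.105 in CDH1.

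Among single members, direction turned in 4 cases: Cdc6 in CDH1 was -0.02 with the authors' processed ratios, Cdc6 in Clusters 1+2 was -0.05 with the mean of all detected probes, and with the sample channel alone Mybl2 in Cluster 1 was 0.26 and Cdt1 in CDH1 was -0.13.

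With marked spots kept, members called were 3 in Cluster 1, 4 in Clusters 1+2 (2 higher, 2 lower), 11 in CDH1, 0 in CDH1 against the Puro vector for Cluster 1, 1 in Cluster 1 against the Puro vector for CDH1, 11 for the Cluster 1 effect minus that of CDH1, and 0 for the other effect differences. G1/S medians then were 0.281 in CDH1 and -0.199 between the Puro vectors. With an offset of 10, and with no filter on dim probes, the effect differences with Cluster 2 had 0 called. Without the filter, Cluster 1 against the Puro vector for CDH1 had 2. With the authors' processed ratios Clusters 1+2 had 7, CDH1 against the Puro vector for Cluster 1 had 0 (mitotic median 0.064), and both effect differences with Cluster 2 had 0. The G1/S median in CDH1 then was 0.266, and the mitotic median between the Puro vectors -0.138.

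Under median centring 5 were called in Cluster 1, 4 in Cluster 2 (medians 0.272 G1/S and 0.289 mitotic), 8 in Clusters 1+2, 29 in CDH1 (medians 0.468 and 0.427), 3 in CDH1 against the Puro vector for Cluster 1 (medians 0.13 and 0.266), and 9 and 8 for the effects of Clusters 1+2 and Cluster 1 minus that of Cluster 2. With scaled spread Clusters 1+2 had 2 (1 higher, 1 lower), both effect differences with Cluster 2 had 0, and G1/S medians were -0.264 in Cluster 1, -0.353 between the Puro vectors and -0.048 in CDH1 against the Puro vector for Cluster 1. With the sample channel alone 5 were called in Clusters 1+2 (1 higher, 4 lower), 8 in CDH1 against the Puro vector for Cluster 1 (medians 0.093 and 0.254), 14 in Cluster 1 against the Puro vector for CDH1, and 0 and 2 for the effect differences of Clusters 1+2 and Cluster 1 with Cluster 2. Medians were then -0.259 for G1/S in Cluster 1, -0.107 and -0.099 in Cluster 2, 0.377 for G1/S in CDH1, and -0.181 and 0.037 between the Puro vectors. With the slide as a block, the Cluster 1 effect minus that of Cluster 2 had 3; that block could not be fitted where slide and group coincide.

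Leaving out 1 array gave 4 to 5 called in Cluster 1 (G1/S medians -0.244 to -0.176, mitotic -0.15 to -0.044), 0 to 1 in Cluster 2 (-0.067 to -0.001 and -0.049 to -0.027), 6 to 12 in Clusters 1+2 (0.015 to 0.048 and -0.16 to -0.086) and 10 to 15 in CDH1 (0.194 to 0.255 and 0.183 to 0.218). It gave 0 to 1 in CDH1 against the Puro vector for Cluster 1 (-0.042 to 0.026 and 0.091 to 0.159), 0 to 2 in Cluster 1 against the Puro vector for CDH1 and 8 to 10 between the Puro vectors (-0.314 to -0.225 and -0.079 to -0.047). The effect differences had 14 to 19 (Cluster 1 and CDH1), 0 to 3 (Clusters 1+2 and Cluster 2) and 0 to 1 (Cluster 1 and Cluster 2). Against the own vectors, the lowest counts in Cluster 1, Clusters 1+2 and CDH1 came without Cluster 1 replicate A, Clusters 1+2 replicate A and CDH1 replicate B.

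Repeat letters are shared labels; deviations of same-lettered arrays correlated at -0.014 (Cluster 1), 0.276 (Cluster 2), 0.333 (Clusters 1+2) and 0.013 (CDH1) across genes. With the replicate block 7 members were called in Cluster 1, 0 in Cluster 2, 13 in Clusters 1+2, 18 in CDH1, 1 in CDH1 against the Puro vector for Cluster 1, 4 in Cluster 1 against the Puro vector for CDH1 and 11 between the Puro vectors. With this block E2f1 in Cluster 1 (-0.27, adjusted p = 0.0648) and Pcna (0.22, adjusted p = 0.0547) and Cdk1 (0.36, adjusted p = 0.0526) in CDH1 lost their call, and with the slide as a block E2f1 did (adjusted p = 0.0523). Dim signal limits Ttk in both Puro vectors and the single-cluster groups, Mcm2 and Aurkb in the CDH1 control, and Aurkb also in Cluster 1.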
